A study of Mus musculus with 45 samples.

Results

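The genes described here make or sense prostanoids: the cyclooxygenases Ptgs1 and Ptgs2, the terminal synthases Ptges and Tbxas1, and the receptors Ptgir, Ptger2 and Ptger4. They were chosen by name, with earlier results of these data known. They are 7 of the 24421 genes in the table of CPM, which give each gene's share of the reads in its library. All 7 were among the 11380 genes abundant enough to test (at least 1 CPM in at least 3 libraries). The cells were macrophages grown from bone marrow of C57BL/6 mice and used on day 7 of differentiation in medium conditioned by L929 fibroblasts, which supplies the growth factor M-CSF. The 21 libraries of poly(A) RNA form 7 groups of 3. One group was left untreated (UT), and the others were treated for 2 h or 4 h with IFN-γ at 100 ng/ml, with IL-4 at 10 ng/ml, or with the combination of the 2 cytokines. No group used here carries a transgene, a deletion or a hairpin RNA. A further 24 libraries of the series, from cells with hairpin RNAs, are not analysed here. The labels do not say that replicates came from separate animals or cultures, so the spread behind every p-value is that between these libraries and may be technical.

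Prostanoids are short-lived lipid signals made from arachidonic acid. A cyclooxygenase, either the constitutive COX-1 (Ptgs1) or the inducible COX-2 (Ptgs2), converts arachidonic acid to prostaglandin H2. Terminal synthases then turn it into prostaglandin E2 (microsomal synthase Ptges), thromboxane A2 (Tbxas1) and other products. Prostaglandin E2 acts on the EP receptors, of which EP2 (Ptger2) and EP4 (Ptger4) raise cyclic AMP, as does the prostacyclin receptor IP (Ptgir). In macrophages these receptors are known to dampen the release of inflammatory cytokines, and Ptgs2 is a classical gene of inflammatory activation.

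Levels are CPM rescaled by a median-ratio factor, so that libraries rich in ribosomal RNA can be set beside the others. The ribosomal RNA precursor Rn45s took 0.151%, 43.2% and 15.7% of the reads in UT replicates 1, 2 and 3, and totals ran from 28920801 to 80028327 reads. A log2 change is a change of log2(rescaled CPM + 1) ± standard error (SE) from limma, with n = 3 libraries per group, and a value after ± on the CPM scale is a standard deviation (SD). The added 1 makes the log2 change of a low gene smaller than that of its CPM. The words rose and fell are kept for a Benjamini-Hochberg adjusted p under 0.05, over all genes tested, in this fit. In CPM as deposited, the median log2 change of all genes against untreated cells was 0.10 to 0.43. Members that this scaling moved across the threshold are named beside their values.

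All 8 macrophage markers in the table were expressed, with a summed level of 16685 to 37240 CPM. Of 5 platelet and megakaryocyte markers, which matter because Ptgs1 and Tbxas1 are also platelet genes, only Pf4 passed 1 CPM (32.8 to 94.0), and Ppbp, Itga2b, Gp1ba and Gp9 did not. Cd3d, Cd3e, Cd3g and Cd8a of T cells and Ms4a1, Cd79a and Pax5 of B cells stayed under 1 CPM in every library, while Cd4 of the T cell list was at 1.85 to 26.2 CPM and Cd79b of the B cell list at 3.23 to 14.7 CPM. The B cell list summed to 3.41 to 4.15 CPM in UT and, without overlap, to 7.40 to 14.8 CPM under the combination for 4 h. Neutrophil markers summed to 89.4 to 212 CPM in UT and to 96.3 to 330 CPM after IFN-γ for 4 h. The mast cell and basophil list summed to 3.20 to 10.6 CPM in UT and, without overlap, to 10.9 to 17.7 CPM after IFN-γ for 4 h and to 11.6 to 13.7 CPM under the combination for 4 h. Of its 5 markers Mcpt8 and Ms4a2 stayed under 1 CPM in every library, and Hdc, Kit and Cpa3 reached 12, 9.52 and 1.04 CPM. Kit was highest in UT replicate 2, and Hdc in replicate 2 of the combination for 4 h. The order of the sums therefore need not hold for each marker of this list. The part of these cells in the results was not tested. In bulk RNA, a change in the number of cells of a type and a change in RNA per cell cannot be told apart.

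Replicate 2 stood apart for the enzymes. It held the lowest of the 3 values in 7 of 7 groups for each of Ptgs1, Ptgs2, Ptges and Tbxas1, and in 6 of 7 for Ptger4. Set against the mean of replicates 1 and 3, its Ptgs1 level was 31.8% to 40.7% over the 7 groups, and its Tbxas1 level 51.4% to 60%. Ptgir did not share this order: its replicate 2 was at 96.9% to 160%. The marker sums moved with the replicate number as well. Macrophage markers summed to 16685 to 21063 CPM in replicate 2 and to 25218 CPM or more in the others. Lyz2 was the largest part of that sum (9911 to 27140 CPM over all libraries). The order need not hold for each marker, since Cd14 was highest in UT replicate 2 (462 CPM). The platelet list (nearly all Pf4) summed to 73.0 to 95.6 CPM in replicate 2 and to 33.8 to 47.4 CPM in the others. The part of cell makeup in the levels was not tested. Because the libraries share this structure by number, each comparison was also fitted with a block for the number, and the adjusted p of that fit is given where it changes the call.

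**Figure D1:**
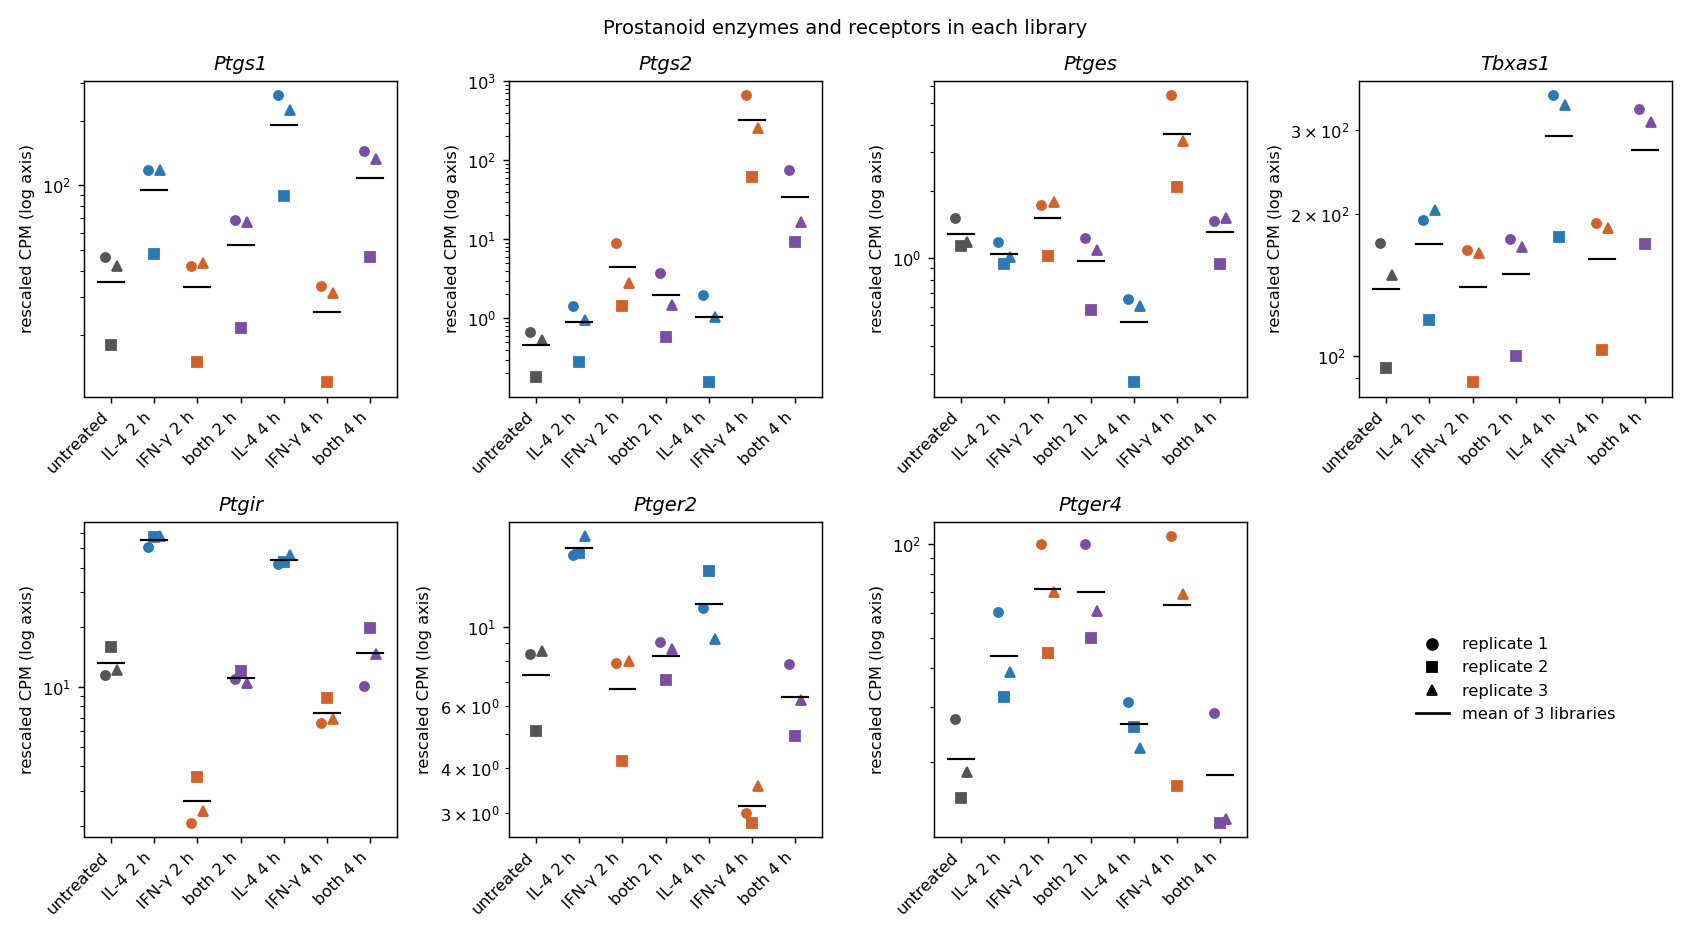
Rescaled CPM (log axis) of the 7 genes in every library, with 1 panel per gene, groups on the x axis, symbols for the replicate number and a line at the mean of 3 libraries. Ptgs2 rises from 0.180 to 0.679 CPM in untreated libraries to 61.5 to 661 CPM after IFN-γ for 4 h, and replicate 2 (squares) is lowest in every group for the 4 enzymes.

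Promoters are shown for the gene with the largest change (Ptgs2) and for the pair of synthases that answered the cytokines differently (Ptges and Tbxas1). They run from 250 bases before to 50 after the RefSeq start on GRCm38.p6, 5′ to 3′, and all 7 genes were matched. Ptgs2 lies at chr1:150099781-150100080 (plus strand), Ptges at chr2:30903248-30903547 (minus strand) and Tbxas1 at chr6:38918736-38919035 (plus strand). The windows of Ptges and Tbxas1 lie inside the annotated gene spans given below, away from their ends. A single start per gene was used, and other starts were not searched. Capitals mark matches on either strand. The letters of the STAT6 type were searched by their consensus. The core of the cyclic AMP response element was searched as TGACGT. The C/EBP letters were TTNNGNAA, the TATA box was TATAAA and the GC box was GGGCGG. The full cyclic AMP element and the NF-κB consensus were searched too.
Ptgs2: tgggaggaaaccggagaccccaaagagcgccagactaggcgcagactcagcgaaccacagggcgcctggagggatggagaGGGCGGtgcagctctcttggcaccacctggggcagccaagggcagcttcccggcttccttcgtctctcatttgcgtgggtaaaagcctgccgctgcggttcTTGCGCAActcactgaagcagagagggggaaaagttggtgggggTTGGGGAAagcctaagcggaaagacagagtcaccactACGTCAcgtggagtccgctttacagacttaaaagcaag
Ptges: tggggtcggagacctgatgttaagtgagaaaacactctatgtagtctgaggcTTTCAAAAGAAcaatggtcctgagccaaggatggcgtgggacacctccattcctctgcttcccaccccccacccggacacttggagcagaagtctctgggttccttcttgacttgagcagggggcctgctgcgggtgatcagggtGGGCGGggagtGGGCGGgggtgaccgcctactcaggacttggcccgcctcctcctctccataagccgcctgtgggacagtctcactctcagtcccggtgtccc
Tbxas1: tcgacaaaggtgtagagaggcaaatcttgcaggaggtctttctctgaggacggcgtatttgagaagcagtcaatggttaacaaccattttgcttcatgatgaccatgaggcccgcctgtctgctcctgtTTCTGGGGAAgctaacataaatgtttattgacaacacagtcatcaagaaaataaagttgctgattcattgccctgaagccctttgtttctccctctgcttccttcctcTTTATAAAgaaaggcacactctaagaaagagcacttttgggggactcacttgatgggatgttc

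The Ptgs2 promoter held the cyclic AMP core (as ACGTCA, 12 bases after the start), 2 C/EBP matches at -69 and -25 and a GC box at -170. The core was in 1 of the 7 promoters and in 7.64% of 27025 promoters of the same length. The STAT6 type letters were in 2 of 7 (Ptges at -197, where a C/EBP match overlaps it, and Tbxas1 at -121) and in 6.99% of all promoters. The NF-κB consensus was in 0 of 7 and in 8.18% of all promoters, and the full cyclic AMP element in 0 of 7 and 1.88%. Tbxas1 held a TATA box, overlapping on both strands, as did 14.2% of all promoters. GC boxes were in 4 of 7, with 4 matches in Ptger4, against 35.9% of all promoters, and C/EBP letters were in 3 of 7, with 3 matches in Ptger2, against 40.7%. The Ptgs1 promoter held no match to these letters. A match describes the letters only, and bases outside these windows were not searched.

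Against untreated cells, 2 of the 7 genes were called after IL-4 for 2 h (8.62% of all genes tested were called) and 2 after IL-4 for 4 h (22.1%). After IFN-γ it was 2 at 2 h (17.9%) and 4 at 4 h (39.2%), and under the combination 1 at 2 h (22.2%) and 2 at 4 h (42.6%). With 7 genes these counts are read as no result on the members as a set, and the genes are described singly. Their median log2 change was 1.05 after IL-4 for 2 h and between 0.00 and 0.61 in the other 5 comparisons, beside -0.01 to 0.00 over all genes tested. These comparisons share the UT libraries. Groups that did not overlap UT were common. After IL-4, IFN-γ and the combination for 2 h, 21.4%, 29.4% and 32.4% of all genes tested showed no overlap in rescaled CPM. At 4 h the shares were 35.4%, 45.8% and 50.7%. A lack of overlap given below therefore only describes the libraries.

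**Figure D2:**
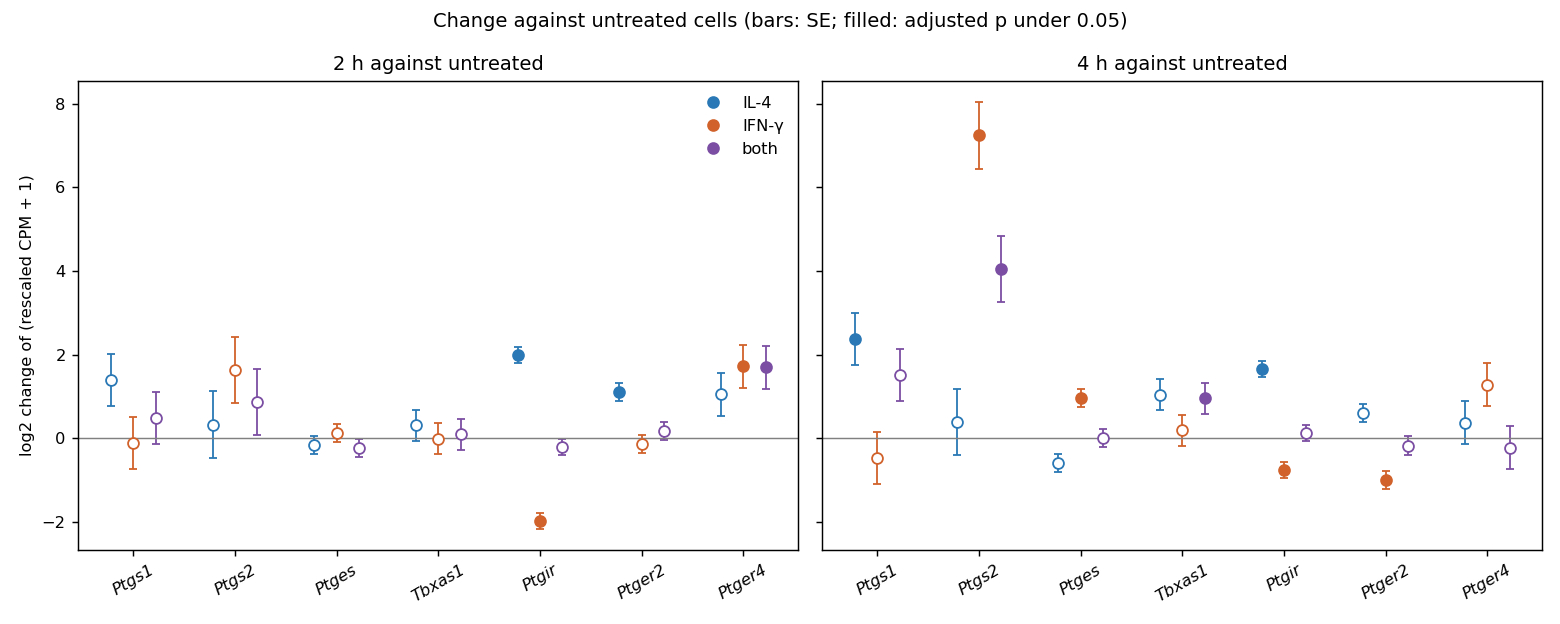
Log2 change of (rescaled CPM + 1) against untreated cells for the 7 genes at 2 h and 4 h, with bars of 1 SE and filled points where the adjusted p is under 0.05. Ptgir lies above 0 after IL-4 and below 0 after IFN-γ at both times, and Ptgs2 after IFN-γ for 4 h lies highest, at 7.24.

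Ptgs1 encodes COX-1 (ENSMUSG00000047250.13, chromosome 2, 36230426 to 36252272, plus strand, GRCm38). Its level was 46.3, 18.0 and 42.2 CPM in UT replicates 1, 2 and 3. It was 117, 48.0 and 118 CPM after IL-4 for 2 h and 263, 89.3 and 224 CPM after IL-4 for 4 h, every library above every untreated one. The rise at 4 h was 5.40-fold by group means (log2 change 2.37 ± 0.62, adjusted p = 0.0105). It lost its call without UT replicate 2 (adjusted p = 0.0558) or without IL-4 4 h replicate 1 (0.052). At 2 h the change was 1.39 ± 0.62 (adjusted p = 0.241, or 0.0475 in CPM as deposited), and with the block it was called (5.66e-10), the changes within numbers 1, 2 and 3 being 1.32, 1.37 and 1.46. So the 3 pairs gave nearly the same change, from levels that differed more than 2-fold between numbers.

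After IFN-γ Ptgs1 was not called against UT. It was at 42.0, 15 and 43.2 CPM at 2 h and at 33.7, 12.1 and 31.4 CPM at 4 h. The 4 h change of -0.47 ± 0.62 (adjusted p = 0.603) was called with the block (5.11e-05). The combination gave 68.8, 21.6 and 67.1 CPM at 2 h (0.49 ± 0.62, adjusted p = 0.692, with the block 5.15e-05). At 2 h it differed from IFN-γ alone by 0.61 (adjusted p = 1.00, with the block 2.92e-05) and from IL-4 alone by -0.90 (0.46, with the block 1.03e-07). It gave 145, 46.4 and 132 CPM at 4 h, between the levels under IL-4 and IFN-γ alone in each number. Against IFN-γ alone Ptgs1 rose by 1.99 ± 0.62 (adjusted p = 0.0468), a call lost without any single library of these 6 except replicate 2 of the combination (0.0625 to 0.163). Against UT the combination gave 1.52 ± 0.62 (adjusted p = 0.0585, with the block 2.39e-11, as deposited 0.0345). Against IL-4 alone the difference was -0.85 ± 0.62 (adjusted p = 0.343, with the block 7.29e-08).

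Ptgs2 encodes COX-2 (ENSMUSG00000032487.8, chromosome 1, 150100031 to 150108227, plus strand). It was nearly silent in untreated cells, at 0.679, 0.180 and 0.537 CPM (25, 3 and 40 reads). IFN-γ gave 9.08, 1.44 and 2.78 CPM at 2 h and 661, 61.5 and 255 CPM at 4 h, and both sets of libraries lay above all untreated ones. The 4 h mean, 326 ± 306 CPM, was 701-fold the untreated mean of 0.465 ± 0.257 CPM (log2 change 7.24 ± 0.79, adjusted p = 1.79e-06). On the recovered reads, edgeR gave a log2 change of 9.27 (adjusted p = 5.12e-05). The 2 h change was 1.64 ± 0.79 (adjusted p = 0.193, with the block 0.00292). On this scale the size of the 4 h response differed between numbers, with log2 changes of 8.62, 5.73 and 7.38. With untreated levels under 1 CPM, these sizes and their spread depend on the added 1.

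IL-4 alone left Ptgs2 at 1.44, 0.278 and 0.943 CPM at 2 h and 1.95, 0.155 and 1.02 CPM at 4 h. Those changes, 0.33 ± 0.79 and 0.39 ± 0.79, were not called (adjusted p = 0.957 and 0.806), and their 95% intervals reached from -1.34 to 2.00 and from -1.28 to 2.07. Under the combination Ptgs2 was at 3.79, 0.584 and 1.46 CPM at 2 h (0.87 ± 0.79, adjusted p = 0.537). For 4 h it was at 75.8, 9.23 and 16.4 CPM, so it rose against UT (4.04 ± 0.79, adjusted p = 5.36e-04) and against IL-4 alone (3.65 ± 0.79, adjusted p = 0.00194). Against IFN-γ alone it fell by 3.20 on the log2 scale (SE 0.79, adjusted p = 0.0115), from a mean of 326 to 33.8 CPM. The 2 groups overlap, since replicate 1 of the combination (75.8 CPM) lies above replicate 2 of IFN-γ (61.5 CPM), but within numbers the log2 changes were -3.11, -2.61 and -3.88. The call was lost without IFN-γ 4 h replicate 1 (adjusted p = 0.0789), without combination 4 h replicate 2 (0.0693) or without its replicate 3 (0.0515).

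The balance of the cyclooxygenases does not depend on library scaling. Per kilobase of annotated exon (union of 3884 bases for Ptgs1 and 4580 for Ptgs2), Ptgs1 exceeded Ptgs2 in untreated cells by 80.5-, 118- and 92.8-fold in replicates 1, 2 and 3 (geometric mean 95.9). After IL-4 for 4 h the excess was 158-, 678- and 257-fold. After IFN-γ for 4 h Ptgs2 exceeded Ptgs1 instead, by 16.6-, 4.32- and 6.89-fold, the single group in which it did so. Under the combination for 4 h Ptgs1 was again the higher, by 2.25-, 5.93- and 9.48-fold.

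**Figure D3:**
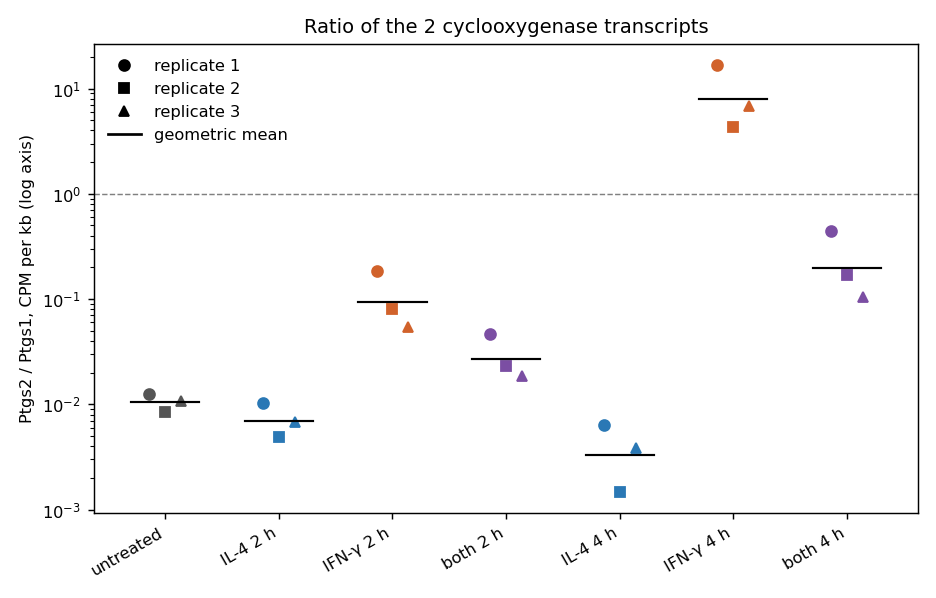
Ratio of Ptgs2 to Ptgs1 in CPM per kilobase (log axis) in every library, with the geometric mean of each group as a line and equality as a dashed line. The 3 libraries of IFN-γ for 4 h, at 4.32 to 16.6, lie above equality, and all others lie below it.

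Ptges encodes the inducible microsomal prostaglandin E synthase (ENSMUSG00000050737.13, chromosome 2, 30889471 to 30929863, minus strand). It was rare, at 1.52, 1.14 and 1.18 CPM in UT (163 reads in the group). After IFN-γ for 4 h it was at 5.42, 2.1 and 3.38 CPM, all above the untreated libraries, a rise of 0.96 ± 0.22 (adjusted p = 0.00196), 2.84-fold by group means. After IL-4 for 4 h it was at 0.658, 0.276 and 0.610 CPM, all below UT, where the change of -0.60 ± 0.22 missed the threshold (adjusted p = 0.0601) and was called with the block (0.00106) and by edgeR (0.0194). Under the combination for 4 h Ptges was at 1.47, 0.944 and 1.52 CPM, near those in UT (0.01 ± 0.22, adjusted p = 0.968). It thus fell by 0.95 against IFN-γ alone (SE 0.22, adjusted p = 0.00652). Against IL-4 alone it rose by 0.61 ± 0.22 (adjusted p = 0.0421), but not in CPM as deposited (0.0734), and leaving out any single library of the 2 groups except replicate 2 of the combination ended that call (0.0556 to 0.148). Ptges and Ptgs2, which act in sequence in the synthesis of prostaglandin E2, both rose after IFN-γ for 4 h and were both lower under the combination than under IFN-γ. At 2 h Ptges was at 0.584 to 1.79 CPM in all 9 treated libraries, and no group was called against UT.

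Tbxas1, thromboxane A synthase (ENSMUSG00000029925.13, chromosome 6, 38875404 to 39084585, plus strand), was abundant throughout, at 174, 94.6 and 149 CPM in UT. IL-4 gave 193, 119 and 204 CPM at 2 h and 356, 179 and 340 CPM at 4 h, and only the 4 h libraries lay above all untreated ones. The 2 h change was 0.31 ± 0.37 (adjusted p = 0.828, with the block 0.00135). The 4 h change of 1.04 ± 0.37 had an adjusted p of 0.0561 and was called with the block (9.55e-10), in CPM as deposited (0.00597) and by edgeR (0.0452). The combination for 2 h gave 177, 100 and 170 CPM, a difference of -0.21 ± 0.37 from IL-4 alone (adjusted p = 0.88, with the block 0.0158). For 4 h it gave 334, 173 and 313 CPM and a rise of 0.96 ± 0.37 (adjusted p = 0.0486), although its replicate 2 (173 CPM) lay below UT replicate 1 (174 CPM). That call was lost without UT replicate 2 (adjusted p = 0.188) or 3 (0.0761), and without combination replicate 1 (0.161) or 3 (0.138). It was also lost when totals were taken without Rn45s and Lars2 (0.06). After IFN-γ Tbxas1 stayed near UT at 168, 88.1 and 165 CPM at 2 h and 191, 103 and 186 CPM at 4 h (0.19 ± 0.37, adjusted p = 0.731, with the block 0.0137). Between the combination and IL-4 at 4 h the difference was -0.09 ± 0.37, with a 95% interval from -0.88 to 0.70. Within numbers 1, 2 and 3 this difference was -0.09, -0.05 and -0.12, and the block did not call it (adjusted p = 0.263). Between the combination and IFN-γ at 4 h it was 0.76 ± 0.37 (adjusted p = 0.246, with the block 9.51e-08).

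Ptgir, the prostacyclin receptor (ENSMUSG00000043017.9, chromosome 7, 16906490 to 16910905, plus strand), moved in opposite directions under the 2 cytokines, with little spread between replicates after IL-4. It was at 11.5, 15.9 and 12.1 CPM in UT. IL-4 gave 51.0, 56.9 and 57.7 CPM at 2 h, a 4.19-fold rise (2.00 ± 0.19, adjusted p = 2.20e-06), and 41.7, 42.6 and 46.1 CPM at 4 h (1.66 ± 0.19, adjusted p = 8.00e-06). IFN-γ gave 2.06, 3.51 and 2.38 CPM at 2 h, so that Ptgir fell by 1.96 (SE 0.19, adjusted p = 1.23e-06), to a mean 4.97-fold below UT. At 4 h it had come back to 6.55, 8.84 and 6.87 CPM, still lower than UT (-0.75 ± 0.19, adjusted p = 0.00517), a call not made in CPM as deposited (0.0619). From 2 h to 4 h of IFN-γ it rose by 1.21 ± 0.19 (adjusted p = 3.75e-04).

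Under the combination Ptgir stood near the untreated level, at 11, 12 and 10.5 CPM at 2 h and 10.1, 19.9 and 14.8 CPM at 4 h. The changes against UT were -0.21 ± 0.19 and 0.13 ± 0.19 (adjusted p = 0.54 and 0.617). All 4 comparisons of the combination with a single cytokine were called. Against IL-4 Ptgir fell by 2.21 at 2 h (adjusted p = 6.24e-07) and by 1.53 at 4 h (1.19e-05), and against IFN-γ it rose by 1.75 (2.94e-05) and 0.88 (0.00476), all with an SE of 0.19. Between the single cytokines the difference, IFN-γ minus IL-4, was -3.96 ± 0.19 at 2 h (adjusted p = 5.24e-10), a ratio of 20.8 in favour of IL-4, and -2.41 ± 0.19 at 4 h (3.47e-08). No single left-out library ended any of the Ptgir calls named here.

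Ptger2, the EP2 receptor (ENSMUSG00000037759.6, chromosome 14, 44988195 to 45003820, plus strand), also rose after IL-4 for 2 h, by a smaller step than Ptgir. It was at 8.39, 5.09 and 8.55 CPM in UT and at 15.9, 16.2 and 18.0 CPM after IL-4 for 2 h, a rise of 1.11 ± 0.22 (adjusted p = 0.00346). At 4 h of IL-4 it was at 11.3, 14.3 and 9.23 CPM (0.61 ± 0.22, adjusted p = 0.063, with the block 0.0122, as deposited 0.00992). IFN-γ left it at 7.91, 4.18 and 8.01 CPM at 2 h (-0.13 ± 0.22, adjusted p = 0.831) and at 3.0, 2.81 and 3.57 CPM at 4 h, where it fell by 0.99 (SE 0.22, adjusted p = 0.00202). The combination gave 9.06, 7.07 and 8.67 CPM at 2 h and 7.86, 4.94 and 6.23 CPM at 4 h, neither called against UT. It fell against IL-4 by 0.94 at 2 h (adjusted p = 0.00767) and by 0.78 at 4 h (0.0132), and the 4 h call was lost without IL-4 replicate 2 (0.0657) or combination replicate 2 (0.0673). Against IFN-γ at 4 h it rose by 0.82 (adjusted p = 0.0219), but not in CPM as deposited (0.0756), nor without IFN-γ replicate 1 (0.0711) or 2 (0.0609) or combination replicate 1 (0.107) or 3 (0.0606).

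Ptger4, the EP4 receptor (ENSMUSG00000039942.15, chromosome 15, 5206661 to 5244187, minus strand), rose after IFN-γ for 2 h. A processed pseudogene, Gm15937, overlaps 15.27% of its exonic bases on the opposite strand, and the strand setting of the counting is not given in the sources used here. Its level was 27.4, 15.3 and 18.6 CPM in UT and 99.8, 44.5 and 70.1 CPM after IFN-γ for 2 h, with no overlap (1.72 ± 0.51, adjusted p = 0.0261). The combination for 2 h gave 99.5, 49.8 and 61.1 CPM (1.71 ± 0.51, adjusted p = 0.0226), and its difference from IFN-γ alone was -0.01 ± 0.51, with a 95% interval from -1.10 to 1.07. The call after IFN-γ was lost without UT replicate 2 (0.0926) or 3 (0.0766), or without IFN-γ replicate 1 (0.113) or 3 (0.0697). The call under the combination was lost without UT replicate 2 (0.0809) or 3 (0.0679), or without combination replicate 1 (0.108). IL-4 for 2 h gave 60.2, 32.3 and 38.8 CPM, also all above UT (1.05 ± 0.51, adjusted p = 0.301, with the block 0.0139, as deposited 0.0457).

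At 4 h the Ptger4 levels parted. IFN-γ gave 106, 16.8 and 68.8 CPM, in which replicate 2 was near its untreated value (log2 changes of 1.91, 0.12 and 1.83 in numbers 1, 2 and 3), and the change of 1.29 ± 0.51 had an adjusted p of 0.057 (with the block 0.00109, as deposited 0.0408, by edgeR 0.02). The combination gave 28.7, 12.8 and 13.1 CPM, near the untreated level (-0.22 ± 0.51, adjusted p = 0.769). From 2 h to 4 h of the combination Ptger4 fell by 1.93 (SE 0.51, adjusted p = 0.0147). That call was lost without the combination's 2 h replicate 1 (0.0692) or its 4 h replicate 2 (0.0566) or 3 (0.0576). IL-4 for 4 h gave 31.2, 25.8 and 22.2 CPM, and the difference of IFN-γ from it was 0.91 ± 0.51 (adjusted p = 0.176, with the block 0.0125). Between the combination and IFN-γ at 4 h the difference was -1.51 ± 0.51 (adjusted p = 0.0699, with the block 7.13e-04). Without IFN-γ 4 h replicate 2 the change after IFN-γ was 2.05 (adjusted p = 8.31e-04), the difference of the combination from IFN-γ -2.27 (0.00118) and that of IFN-γ from IL-4 1.67 (0.00347), all 3 then called. These are not separate results, since all 3 share the IFN-γ group and the library left out was its lowest. Per kilobase of exon, the ratio of Ptger4 to Ptger2 had a geometric mean of 2.17 in UT and 12.5 after IFN-γ for 4 h (27.5, 4.66 and 15 by replicate).

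Setting the combination against its parts, 1 of 7 genes was called against IFN-γ at 2 h (background 3.01%) and 5 at 4 h (11.9%). Against IL-4 it was 2 at 2 h (14.8%) and 4 at 4 h (30.9%). At 4 h, against IFN-γ, the called genes were Ptgs2 and Ptges, which were lower, and Ptgs1, Ptgir and Ptger2, which were higher. Between IFN-γ and IL-4 themselves, 2 genes were called at 2 h (19.4%) and 5 at 4 h (42%). Ptger2 was lower after IFN-γ than after IL-4 at both times (-1.24 ± 0.22, adjusted p = 5.60e-04, and -1.60 ± 0.22, adjusted p = 2.01e-05). At 4 h Ptgs1 was lower after IFN-γ (-2.83 ± 0.62, adjusted p = 0.00139), Ptgs2 higher (6.85 ± 0.79, 2.53e-06) and Ptges higher (1.56 ± 0.22, 1.88e-05). Tbxas1 differed by -0.85 ± 0.37 at 4 h (adjusted p = 0.0797, with the block 3.68e-09, as deposited 0.0167). At 2 h the block added calls of Ptgs1 (-1.50, adjusted p 0.112 without it and 8.90e-11 with it), Ptgs2 (1.31, 0.319 and 0.0129) and Tbxas1 (-0.31, 0.709 and 7.14e-04). That of Ptgs1 was also made by DESeq2 (0.0399), with totals without Rn45s and Lars2 (0.0478) and without replicate 2 in all groups (2.93e-06).

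The interaction asks whether the log2 change under both cytokines differs from the sum of the 2 single changes. No member was called at 2 h (background 0.369%) or at 4 h (1.7%) by limma, edgeR or DESeq2, with 1 and 3 members at an unadjusted p under 0.05 in limma. With the block, 1 member was called at 2 h (3.01% of all genes tested in that fit) and 5 at 4 h (14.8%), and all 6 values were negative. At 4 h Ptgs2 gave -3.93, -2.58 and -4.27 in numbers 1, 2 and 3 and Ptger4 gave -2.03, -1.08 and -2.54, so for both genes the combination lay below the sum in each number. Ptger2 at 4 h gave 0.76, -0.69 and 0.56, with no common sign. The interaction uses the UT libraries, and it is reckoned on log2(CPM + 1).

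**Figure D4:**
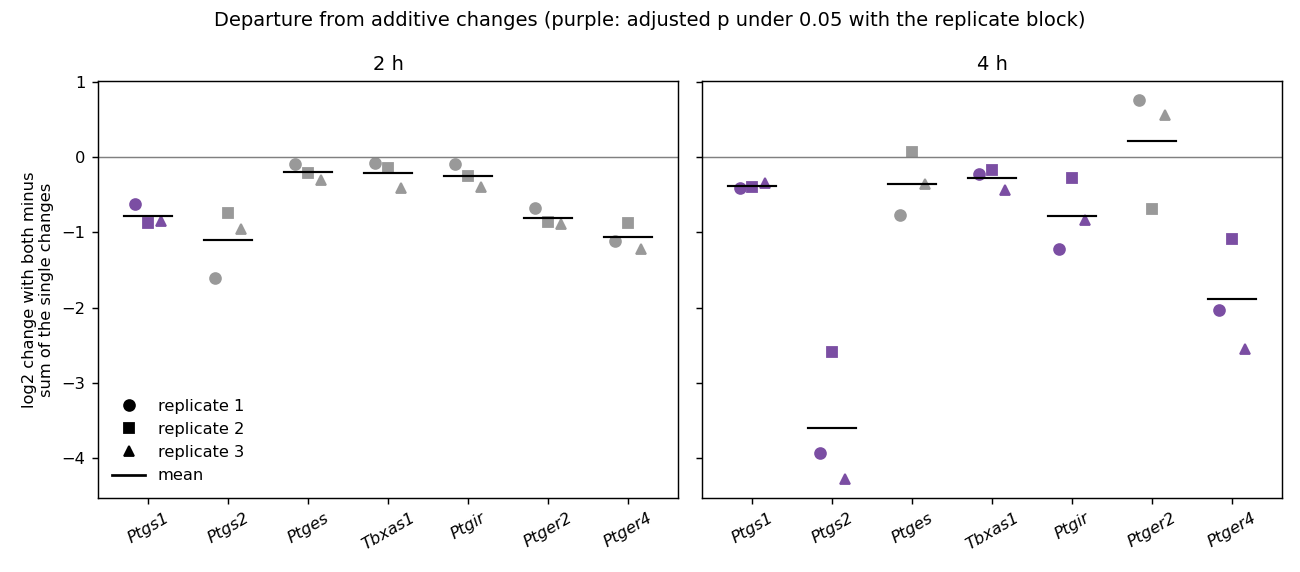
Log2 change under both cytokines minus the sum of the single changes, within each replicate number (symbols) and on average (line), for the 7 genes at 2 h and 4 h. Purple marks adjusted p under 0.05 with the replicate block, and Ptgs2 at 4 h lies lowest, with a mean of -3.59.

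Over time, 0 of 7 members were called between 2 h and 4 h of IL-4 (background 2.81%) by limma, edgeR or DESeq2, with 1 at an unadjusted p under 0.05 in limma and 3 called with the block (19.8% of all genes tested in that fit). Those 3 were Ptgs1 (0.98 ± 0.62 without the block, adjusted p with it 2.30e-07), Tbxas1 (0.73 ± 0.37, 8.59e-07) and Ptges (-0.44 ± 0.22, 0.0223). For IFN-γ 4 of 7 were called (17.7%): Ptgs2 rose by 5.60 ± 0.79 (adjusted p = 1.26e-04), Ptges rose by 0.83 ± 0.22 (0.0132), Ptgir rose as given above and Ptger2 fell by 0.86 (SE 0.22, 0.0129). The Ptges call was lost without IFN-γ 2 h replicate 2 (0.0651) or 4 h replicate 1 (0.0844), and the Ptger2 call without 2 h replicate 1 (0.0593) or 3 (0.0702). For the combination 2 were called (18.3%), Ptger4 and Ptgs2, the latter with a rise of 3.17 ± 0.79 (adjusted p = 0.00963) that was lost without 4 h replicate 1 (0.0594). The block added Ptgs1 (-0.35, adjusted p with it 0.00145) and Tbxas1 (0.20, 0.0192) for IFN-γ. For the combination it added Ptgs1 (1.03, 2.21e-08), Tbxas1 (0.86, 2.21e-08) and Ptgir (0.34, 0.0352).

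The genes most like each member were taken by Pearson's r over the 7 group means, from 2842 genes that reached 5 CPM in a group and ranged over at least 1 log2 unit. Nop56 (r = 0.994), a nucleolar protein of ribosome biogenesis, was nearest to Ptgs1, followed by Mrpl15 and Atad3a. Tlr12, Mrpl39 and Procr (each 0.994) were nearest to Ptgs2, an order set almost wholly by the IFN-γ and combination groups at 4 h. Wdr91 (0.977), Uvrag and Zfp217 were nearest to Ptgir, and Mkl2 (0.986), Cmtr2 and Ube2q2 to Ptger2. For Ptger4 they were Ankrd11 (0.948), Prdm1 and Trib1, for Ptges Gmeb2 (0.988), Fam102b and Tbc1d10b, and for Tbxas1 Mettl1 (0.987), Mcf2l and Smyd5. All of these share the libraries and only 7 points, so they describe likeness of pattern only.

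The lists of other pathway genes are given by counts at 4 h, to be read beside those of all genes tested. Of these, 12% rose and 10.1% fell after IL-4, 21.3% rose and 17.8% fell after IFN-γ, and 22.8% rose and 19.8% fell under the combination, with median log2 changes of -0.01, 0.00 and 0.00. With few genes in each list, nothing is read from a count alone.

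Upstream of the cyclooxygenases, 5 of 12 listed genes of arachidonate release were tested. Pla2g4a, the cytosolic phospholipase A2 that frees arachidonic acid, rose from 24.7 ± 12.1 to 138 ± 22.1 CPM after IFN-γ for 4 h (log2 change 2.52 ± 0.32, adjusted p = 8.30e-06). Under the combination for 4 h it was at 112 ± 1.08 CPM, also a rise (2.23). The secreted phospholipase Pla2g12a rose after IL-4 for 4 h from 6.15 ± 1.17 to 18.6 ± 2.33 CPM (1.46 ± 0.13, adjusted p = 3.40e-07). The diacylglycerol lipases fell, Dagla by 1.70 under the combination for 4 h and Daglb by 1.61 after IFN-γ for 4 h (adjusted p = 6.01e-08 and 1.38e-05). In the list, 1 gene rose and 3 fell after IFN-γ for 4 h (median log2 change -0.70), and 1 rose and 1 fell after IL-4 for 4 h (0.13).

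Of 8 other prostanoid synthases 5 were tested. Hpgds, the hematopoietic prostaglandin D synthase, was the most abundant, at 349 ± 42.3 CPM in UT, and fell to 171 ± 17.8 CPM under the combination for 4 h (-1.02 ± 0.16, adjusted p = 4.74e-05). Ptges3, the cytosolic E synthase and co-chaperone p23, rose by 0.76 ± 0.18 there (adjusted p = 0.00283). The prostacyclin synthase Ptgis had 23 reads and the brain-type D synthase Ptgds 1 read in all 21 libraries. In this list 1 gene rose and 3 fell after IFN-γ for 4 h (median -0.52) and under the combination for 4 h (median -0.42). In transport and breakdown (6 of 7 tested), the organic anion carrier Slco3a1 rose from 6.82 ± 2.33 to 119 ± 42.6 CPM after IFN-γ for 4 h (3.91 ± 0.30, adjusted p = 2.50e-08) and stood at 48.4 ± 6.59 CPM under the combination. Zadh2, which reduces keto-prostaglandins, rose by 0.50 after IL-4 for 4 h (adjusted p = 0.00916) and fell by 0.63 under the combination for 4 h (7.43e-04, not called in CPM as deposited, 0.125).

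Of 7 listed names of other prostanoid receptors, 1 was tested, and its values are not reported here. The thromboxane receptor Tbxa2r had 41 reads and the D2 receptor Ptgdr 5 reads in all libraries. In the leukotriene branch (7 of 10 tested), Ltb4r1, the receptor for leukotriene B4, rose by 4.28 ± 0.30 under the combination for 4 h (adjusted p = 9.51e-09), from 0.415 ± 0.140 CPM in UT. Cysltr1, a receptor for cysteinyl leukotrienes, fell by 1.00 after IFN-γ for 4 h (adjusted p = 0.00639).

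The receptors above signal through cyclic AMP, and 23 of 25 listed genes of that pathway were tested. After IFN-γ for 4 h 4 rose and 10 fell (median -0.33), and under the combination for 4 h 2 rose and 12 fell (median -0.45). Pde4b, a phosphodiesterase that breaks down cyclic AMP, rose by 3.28 ± 0.61 after IFN-γ for 4 h (adjusted p = 4.22e-04), and Crem, a cyclic AMP responsive transcription factor, rose by 2.73 ± 0.21 (2.77e-08). The receptor adaptor Arrb1 fell by 2.65 under the combination for 4 h (adjusted p = 4.00e-09), and Rapgef3, the exchange factor EPAC1, fell by 1.82 after IL-4 for 4 h (0.00111). Of 12 listed targets of cyclic AMP and CREB, 9 were tested. They did not move one way. After IL-4 for 4 h 1 rose and 4 fell (median -0.72), among them Thbs1 (-3.14 ± 0.34, adjusted p = 4.85e-06). After IFN-γ for 4 h 1 rose and 3 fell (median 0.04). Under the combination for 4 h 2 rose, among them Odc1 (1.67 ± 0.25, adjusted p = 4.09e-05), and 5 fell (median -0.79).

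**Figure D5:**
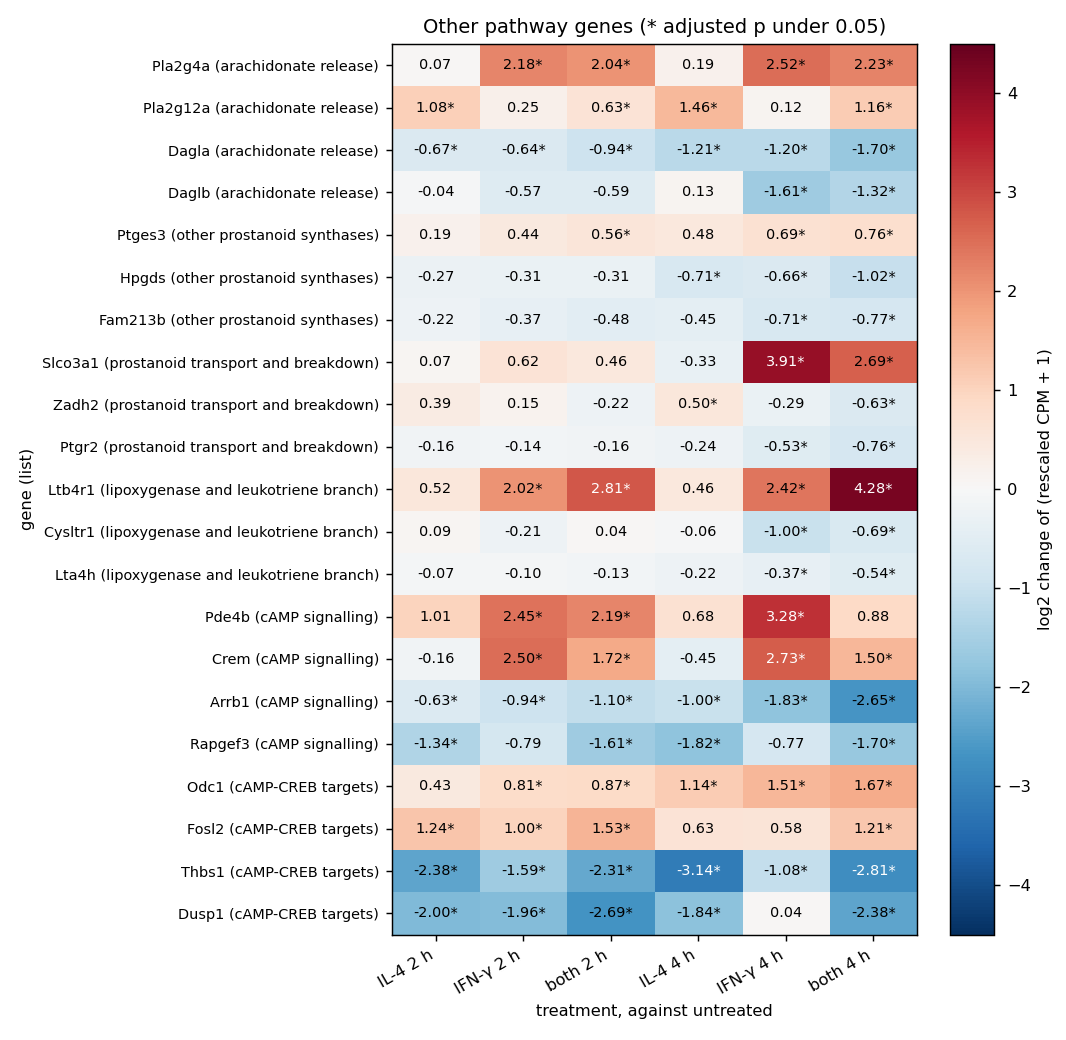
Log2 change of (rescaled CPM + 1) against untreated cells for the other pathway genes named in the text and a few more chosen by the same rule, 1 row per gene with its list and 1 column per treatment, with the value printed and a star where the adjusted p is under 0.05. Slco3a1 after IFN-γ for 4 h (3.91) and Ltb4r1 under both cytokines for 4 h (4.28) are the highest values in the plot.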

How the data were processed

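The deposited table holds CPM per gene made by the authors, with TopHat2 2.1.0, HTSeq, edgeR and the build mm10 (GRCm38) named per the submitters' processing notes. The authors' settings and annotation are not given in the sources used here. Each library's smallest value above 0 was 1 read, and 100% of values were whole reads within 0.01 read, from 28920801 to 80028327 reads per library. Values were rescaled by median-ratio factors (0.577 in UT replicate 2) over the 13025 genes above 0 in every library, and log2(CPM + 1) of the 11380 genes that reached 1 CPM in 3 or more libraries was fitted in R 4.3.3 by limma 3.58.1 (a mean for each group, 17 contrasts, empirical Bayes with a trend, Benjamini-Hochberg within a contrast, threshold 0.05). 

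The replicate numbers of the labels pair the libraries. With group means removed, the 63 pairs with the same number correlated at 0.539 to 0.951 across genes, and the 126 other pairs at -0.859 to 0.369. Deviations within a group cancel out, so positive values for the same number bring negative ones for the others. The ranges are therefore not independent. Alternatives were this number as a block, CPM as deposited, totals without Rn45s and Lars2, pseudocounts of 0.5 and 0.1, no filter, edgeR 4.0.16 and DESeq2 1.42.0 on the recovered reads, UT replicate 1 as the lone control, and left-out libraries. Tested on simulated data for IFN-γ at 4 h against UT (11380 genes), limma called 58.1% of 93 genes changed by 1 log2 unit and 89.7% of 107 changed by 2. The changed genes were drawn only from genes with many reads, and the simulated libraries shared no structure by number. These shares therefore do not carry over to genes with few reads, such as Ptges, or to libraries paired by number.

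Named are all 7 members, up to 4 called genes of each pathway list (those with the largest rise or fall that reached 5 CPM in a group) and the 3 genes most like each member. Gene positions come from GENCODE vM21 and promoters from RefSeq (GRCm38.p6). The members and lists were chosen with earlier results of these data known. A few results on other genes and motifs are not reported here.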

Additional observations from a re-analysis of the deposited data

Results flagged for a closer look

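The change under both cytokines differed from the sum of the single changes for 5 of the 7 genes, by the interaction term of limma with the replicate number as a block. In that fit 3.01% of all genes tested were called at 2 h and 14.8% at 4 h. At 4 h Ptgs2 departed by -3.59 (SE 0.56, adjusted p = 3.69e-04), Ptger4 by -1.88 (SE 0.42, 0.00582) and Ptgir by -0.778 (SE 0.18, 0.00791). Ptgs1 departed by -0.779 at 2 h (SE 0.11, 4.16e-04) and by -0.38 at 4 h (SE 0.11, 0.0263), and Tbxas1 by -0.281 at 4 h (SE 0.09, 0.0456). All 6 values had the same sign in 3 of 3 replicate numbers. This is no separate support, because the fit that chose them rests on agreement between the numbers. Some uncalled values shared a sign as well, such as Tbxas1 at 2 h (-0.075, -0.150 and -0.408). Without the block none of the 6 flagged values was called by limma (adjusted p = 0.146 to 1.00). With the block on CPM as deposited the 4 h values of Ptgs1 (0.0554) and Tbxas1 (0.095) were not called. That fit called the 2 h values of Ptger4 (0.00495) and Ptger2 (0.0292) instead. The cause was not tested.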

How the results depend on the processing

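Of 119 pairs of a member and a comparison, 38 were called. Under the alternatives run, 14 of these kept the call in all, 24 lost it in at least 1 and 0 changed direction, and 44 of the 81 uncalled pairs were called in at least 1. Calls against untreated cells numbered 13, and 25 with the replicate block, 25 with the block on CPM as deposited, 6 with UT replicate 1 as the lone control and 5 to 20 with replicates left out. Calls of the combination against a single cytokine numbered 12 (2 to 17 with replicates left out). Calls between 4 h and 2 h numbered 6, and 14 with the block, 12 with the block on CPM as deposited and 0 to 12 with replicates left out. Calls for the interaction numbered 0, and 6 with the block, 6 with the block on CPM as deposited and 0 to 2 with replicates left out. The sets of 6 were not the same, as given above. Calls between IFN-γ and IL-4 numbered 7, and 12 with the block, 11 with the block on CPM as deposited and 7 to 10 with replicates left out.

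Leaving out replicate 3 in all groups ended 24 calls and leaving out replicate 1 ended 14, while leaving out replicate 2 ended 0 and added 23. The last left-out number is the one in which the enzymes were lowest. These fits have 14 libraries and 2 per group. The block ended 0 calls and added 37, CPM as deposited added 7 and ended 3, edgeR added 5 and DESeq2 added 9. The block changed no call other than those given beside their results. With UT replicate 1 as the lone control the calls lost were Ptgs1 after IL-4 for 4 h (adjusted p = 0.222), Ptges (0.082) and Ptgir (0.147) after IFN-γ for 4 h, Ptger2 after IL-4 for 2 h (0.136), Ptger4 for 2 h after IFN-γ (0.382) and under the combination (0.357), and Tbxas1 under the combination for 4 h (0.458). Without the filter on low genes, 3 calls at 4 h were lost: Ptgs1 of the combination against IFN-γ (0.0758), Ptges of the combination against IL-4 (0.0595) and Tbxas1 of the combination against UT (0.0725). Some calls were gained by leaving out 1 library of the 4 h groups. Without IFN-γ replicate 2, the lowest library of that group for both genes, they were the interactions of Ptgs2 (0.0213) and Ptger4 (0.0127). The 3 further calls of Ptger4 are given with its values. Without replicate 1 of the combination they were Ptgir between 4 h and 2 h (0.0411) and Ptger4 against IFN-γ (0.0442), and without its replicate 2 Ptgs1 against UT (0.0218). Without IL-4 replicate 3 it was Ptger2 against UT (0.0451), and without IL-4 replicate 2 Tbxas1 against UT (0.0228) and against IFN-γ (0.0265). Depth limits Ptges and Ptgs2 in untreated cells, with 163 and 68 reads in the group. Intervals cover the spread between libraries only. They come from the fit without the block, so differences in level between replicate numbers widen them.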
